A study of Mus musculus with 14 samples.

Results

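The SLC25 genes encode mitochondrial carriers, transport proteins that move metabolites, nucleotides, coenzymes and ions across the inner mitochondrial membrane. The members described here are the 43 genes whose symbol in the platform annotation reads Slc25a followed by a number, taken from probe sets that name a single gene, after the rule set 3 family genes aside. They are 43 of 22180 genes measured, each on its own single probe set, so that no choice between probe sets entered. No filter on dim genes was applied, and all 43 members were tested. Expression was measured on Affymetrix whole-transcript arrays in livers from 14 mice, all male and of the inbred strain C57BL/6J: 7 from the sleep-deprived group (mice 1, 2, 3, 5, 6, 10 and 13) and 7 from the control group (mice 4, 7, 8, 9, 11, 12 and 14). The series title gives 1 sleep deprivation of 6 h, and the study asked how it acts on glucose tolerance and liver fat. Sleep was disturbed in the study by gentle handling, by cage changing or on a water platform, and which of these preceded the arrays is not labelled. No genetic change is labelled in either group. The labels used here leave out age, time of day and feeding state. Each numbered sample is taken as 1 mouse.

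Carriers of this family share a fold of repeated membrane-spanning helices and exchange or co-transport their substrates between cytosol and matrix. In hepatocytes they link the matrix steps of gluconeogenesis, the urea cycle, fatty acid synthesis and the malate-aspartate shuttle to the cytosolic steps, and they supply the matrix with ADP, phosphate and coenzymes. Several members have tissue-restricted roles, such as Slc25a31 in male germ cells and Slc25a37 in developing red cells, and for others the substrate is not settled.

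Values are log2 expression after the RMA method, so a difference of 1 is a doubling on the array's scale. Array medians lay between 3.443 and 3.491, and any pair of arrays correlated between 0.984 and 0.9903. Hepatocyte markers had a mean log2 level over 9 measured markers of 11.76 to 11.87 in sleep-deprived and 11.73 to 11.84 in control mice, with Alb the brightest at 13.31 and Ass1 the dimmest at 5.55. Of these 9, 2 were higher, Apoa1 and Cps1 (limma, adjusted p = 0.0277 and 0.0417), and 0 lower. Markers of other cells were measured beside them, and of all genes 3.88% were higher and 4.62% lower. Of 8 markers of sinusoidal endothelial cells 3 were higher and 0 lower: Lyve1 at 1.13, Oit3 at 0.46 and Pecam1 at 0.29 (limma, adjusted p = 0.000422, 0.00323 and 0.0243). Of the 8, 7 had a positive and 1 a negative difference, and for 1 the groups did not overlap. Their mean log2 level ranged from 7.41 to 7.85 in sleep-deprived and 7.19 to 7.53 in control mice. Of 8 stellate cell markers 1 was higher, Rgs5 at 0.30 (limma, adjusted p = 0.0315), and 0 lower. Their mean was 6.67 to 7.12 in sleep-deprived and 6.69 to 7.04 in control mice. Kupffer cell markers had 0 of 8 past the test (0 also at an unadjusted p under 0.05 in limma), at 5.97 to 6.72 in sleep-deprived and 5.88 to 7.15 in control mice. Of 5 cholangiocyte markers 1 was higher, Sox9 at 0.56 (limma, adjusted p = 0.0359), with a mean of 3.71 to 4.19 in sleep-deprived and 3.68 to 3.83 in control mice. Of 6 lymphocyte markers 1 was lower, Cd79a at -0.38 (limma, adjusted p = 0.0112) without overlap of the groups, with a mean of 3.74 to 3.97 in sleep-deprived and 3.75 to 4.19 in control mice. Skeletal muscle markers had 0 of 6 past the test (limma, 1 at an unadjusted p under 0.05), at 3.14 to 3.32 in sleep-deprived and 3.15 to 3.45 in control mice. Of 4 brown fat markers 1 was higher, Elovl3, which hepatocytes also express, at 1.42 (limma, adjusted p = 8.01e-06), with a mean of 4.45 to 4.98 in sleep-deprived and 4.21 to 4.46 in control mice. The other brown fat markers Ucp1, Cidea and Adipoq did not pass. Their mean log2 levels over all arrays were 2.58, 2.72 and 2.54, beside 10.26 for Elovl3. The part of these cells in the carriers' differences was not tested, and in whole liver fewer cells of a type and less RNA per cell cannot be told apart.

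The upstream sequences of the carriers at the centre of the results are given first, credited to RefSeq (build GRCm38.p6). RefSeq's promoter table held 33 of the 43 members, 4 of the higher and 7 of the lower ones. Slc25a2, Slc25a26, Slc25a27, Slc25a32, Slc25a35, Slc25a37, Slc25a41, Slc25a44, Slc25a46 and Slc25a51 were not matched in it. Each sequence is the 250 bases before the annotated start, 5′ to 3′ on the gene's strand. Shown are the 4 carriers of di- and tricarboxylates, which were lower together after sleep deprivation, at chr16:17928220-17928469 (minus strand), chr11:120491587-120491836 (plus strand), chr11:70647040-70647289 (minus strand) and chr12:57197473-57197722 (minus strand, the more upstream of its 2 starts), and the 2 rises with the smallest p among carriers in the table, Slc25a22 at chr7:141437875-141438124 (minus strand, the most upstream of its 3 starts) and Slc25a47 at chr12:108850879-108851128 (plus strand). Capitals mark matches to any of the 7 motifs described after them.
Slc25a1: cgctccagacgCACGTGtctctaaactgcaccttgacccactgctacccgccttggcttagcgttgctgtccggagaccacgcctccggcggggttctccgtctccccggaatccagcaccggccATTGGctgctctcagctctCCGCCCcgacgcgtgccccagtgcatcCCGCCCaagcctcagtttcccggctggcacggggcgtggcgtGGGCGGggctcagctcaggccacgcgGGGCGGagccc
Slc25a10: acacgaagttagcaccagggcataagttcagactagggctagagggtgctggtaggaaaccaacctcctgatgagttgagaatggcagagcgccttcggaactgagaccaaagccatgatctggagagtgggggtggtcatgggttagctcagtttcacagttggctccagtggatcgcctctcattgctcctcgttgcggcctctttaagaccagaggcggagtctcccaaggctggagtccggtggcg
Slc25a11: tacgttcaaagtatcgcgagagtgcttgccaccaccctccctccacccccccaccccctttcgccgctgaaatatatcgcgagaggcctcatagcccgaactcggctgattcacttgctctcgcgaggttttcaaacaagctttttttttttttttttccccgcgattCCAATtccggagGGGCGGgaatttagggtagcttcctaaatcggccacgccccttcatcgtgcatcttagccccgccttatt
Slc25a21: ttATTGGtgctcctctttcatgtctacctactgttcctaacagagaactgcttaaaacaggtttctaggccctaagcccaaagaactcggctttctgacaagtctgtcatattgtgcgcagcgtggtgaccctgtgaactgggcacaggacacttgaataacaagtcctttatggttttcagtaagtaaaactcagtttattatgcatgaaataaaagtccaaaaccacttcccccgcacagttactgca
Slc25a22: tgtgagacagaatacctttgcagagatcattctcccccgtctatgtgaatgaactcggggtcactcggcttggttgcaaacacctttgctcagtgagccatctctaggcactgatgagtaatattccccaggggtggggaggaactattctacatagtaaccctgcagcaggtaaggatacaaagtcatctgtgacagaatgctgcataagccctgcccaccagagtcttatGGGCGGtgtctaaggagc
Slc25a47: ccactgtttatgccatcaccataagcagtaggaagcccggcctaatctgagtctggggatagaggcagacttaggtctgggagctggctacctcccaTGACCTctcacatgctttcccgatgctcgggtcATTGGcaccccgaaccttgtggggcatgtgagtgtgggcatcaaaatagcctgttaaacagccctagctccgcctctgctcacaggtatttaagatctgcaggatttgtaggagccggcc

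Motifs were searched on both strands in these upstream windows, and in those of all 27025 genes in the table. The latter were not limited to genes measured here or expressed in liver, and a match at any start of a gene counted. The GC box GGGCGG was found for 23 of the 33 members (69.7%) against 35.4% of all genes, and the CCAAT box CCAAT for 17 members (51.5%) against 37.5%. An E-box CACGTG, the element bound by clock activators, was found for 5 members (15.2%, against 6.86% of all genes): Slc25a1, Slc25a14, Slc25a31, Slc25a33 and Slc25a36. Slc25a1 was the only one of these 5 past the test. The half-site AGAACA of the glucocorticoid receptor stood in 4 members (12.1%, against 18.2%), none of which passed the test (limma, 0 of these 4 also at an unadjusted p under 0.05). The nuclear receptor half-site AGGTCA stood in 4 members (12.1%, against 15.8%), among them the higher genes Slc25a34 and Slc25a47. The D-box TTANGNAA of clock output factors stood in 4 members (12.1%, against 11.8%), in Slc25a21 and Slc25a22 at a start other than the one printed. Of these 4, 1 was higher and 2 lower, beside 4 higher and 7 lower among the 33 members. The cAMP response element TGACGTCA stood in 2 members, Slc25a25 and Slc25a36 (6.06%, against 1.77%). No printed match overlapped one of another motif. Of the 6 sequences shown, the one of Slc25a1 held 1 E-box, 1 CCAAT box and 4 GC boxes and was 70.0% G or C, while the one of Slc25a10 held none of the 7 motifs at 56.0%. No motif was present in all 4 windows of the di- and tricarboxylate carriers. A match is a run of letters and was not tested as a binding site.

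In the livers of sleep-deprived mice 15 of the 43 carriers changed: 7 were higher and 8 lower (limma, sleep-deprived minus control, adjusted p under 0.05 over all genes). That is 34.9% of the carriers, beside 8.50% of all genes in either direction, 3.88% higher and 4.62% lower. Brightness differed between the carriers and the array as a whole, since 33 of the 43 were brighter than the median gene. All 15 called carriers were among those 33, and 16.0% of all genes brighter than the median were called, against 0.965% of the dimmer ones. The median log2 difference over the 43 carriers was -0.016 and over all genes -0.005, so the list had no common direction. With quantile normalization applied again, 7 carriers were higher and 5 lower. The count of lower carriers was 4 without sleep-deprived mouse 1, and 5 without sleep-deprived mouse 10 or 13 or control mouse 4, 8, 11 or 12. At an unadjusted p under 0.05 there were 20 carriers of 43, beside 19.4% of all genes. For 6 carriers the groups were fully apart, 3 above and 3 below the controls, where 3.13% of all genes showed no overlap (1.34% above, 1.79% below).

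**Figure D1:**
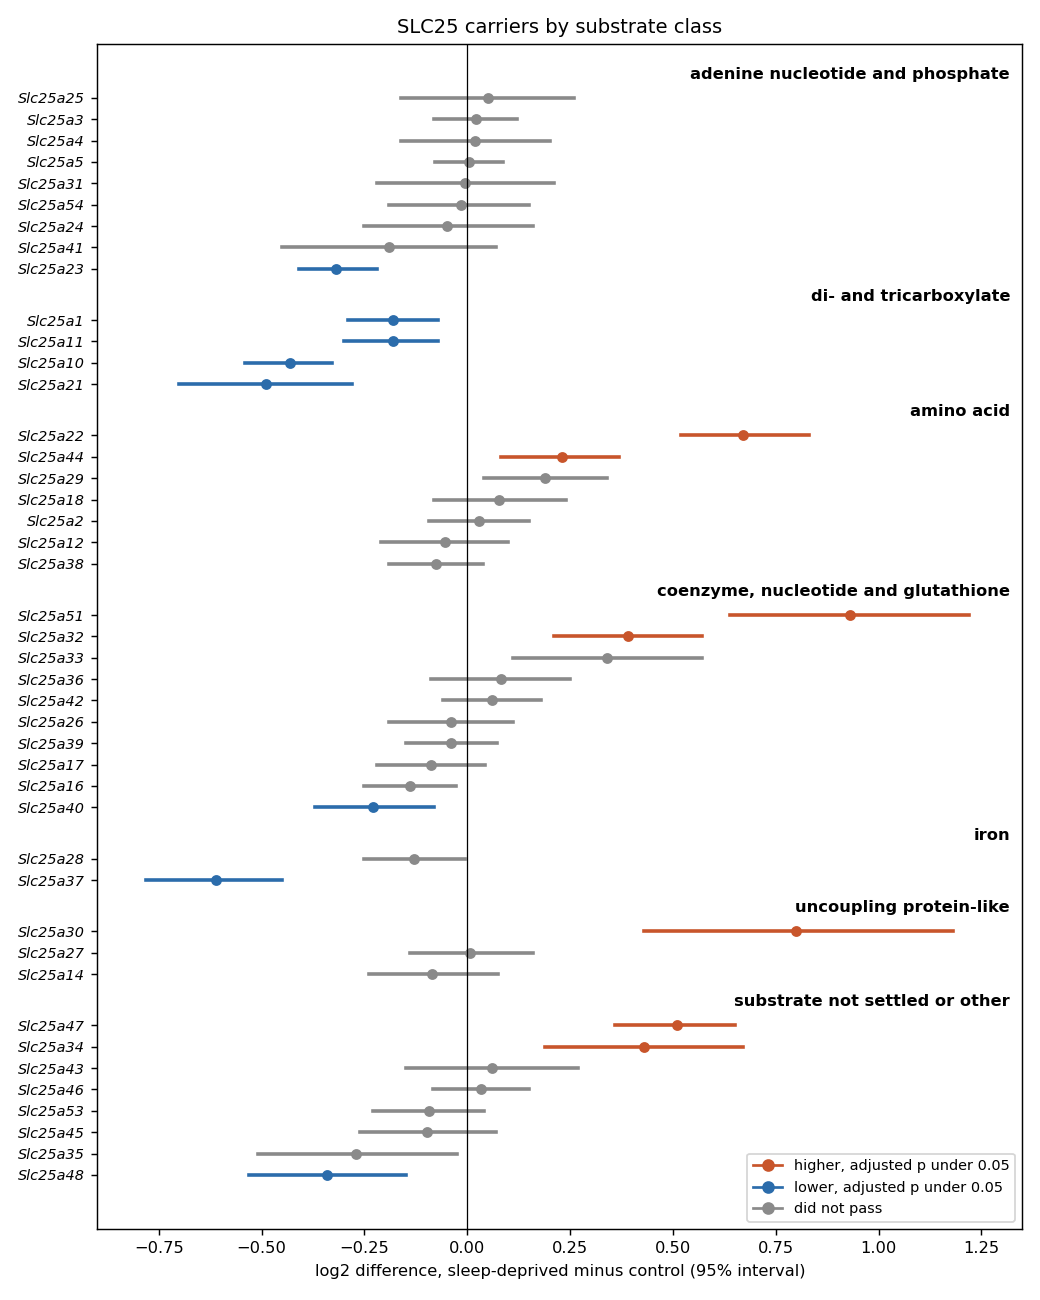
Log2 difference, sleep-deprived minus control, of the 43 SLC25 carriers by substrate class (points; bars are 95% intervals from limma), coloured by direction for carriers past the test. All 4 di- and tricarboxylate carriers lie left of 0, and the largest rises are Slc25a51, Slc25a30 and Slc25a22.

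The carriers of di- and tricarboxylates were lower, 4 of 4, with a median log2 difference of -0.308, beside 4.62% of all genes lower. All 4 were brighter than the median gene, and 16.0% of such brighter genes were called in either direction. The class was chosen with earlier results of these data known, so its count is a description and was not tested. Slc25a10, the dicarboxylate carrier that exchanges malate and succinate for phosphate, had log2 levels from 7.19 to 7.46 (median 7.39) in sleep-deprived mice, against 7.68 to 7.87 (median 7.79) in controls. Every sleep-deprived mouse was below every control. It fell by 0.43 ± 0.051 on the log2 scale (moderated SE from limma, as for all single genes here; n = 7 each, adjusted p = 1.47e-05).

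Slc25a21, which carries oxodicarboxylates such as 2-oxoadipate from lysine and tryptophan breakdown, ranged from 6.00 to 6.53 (median 6.28) in sleep-deprived and from 6.38 to 7.02 (median 6.75) in control mice. Of the 7 sleep-deprived mice 6 lay below all controls, and mouse 10, at 6.53, overlapped control mice 4 and 9, at 6.38 and 6.42. The log2 difference was -0.49 ± 0.10 (limma, adjusted p = 0.00339).

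Slc25a1, the citrate carrier that exports citrate for cytosolic acetyl-CoA and so for fatty acid and sterol synthesis, lay between 9.60 and 9.92 (median 9.74) in sleep-deprived mice and between 9.84 and 10.03 (median 9.91) in controls. The ranges overlapped, with 6 of 7 sleep-deprived mice at values below the lowest control. Its difference of -0.18 ± 0.053 passed (limma, adjusted p = 0.0343), but the call was lost in 8 of 14 fits that left out 1 mouse, with an adjusted p up to 0.0818 without sleep-deprived mouse 13. Slc25a11, the oxoglutarate carrier of the malate-aspartate shuttle, had 8.15 to 8.51 (median 8.36) in sleep-deprived and 8.48 to 8.63 (median 8.54) in control mice, a difference of -0.18 ± 0.054 (limma, adjusted p = 0.0375). That call was lost in 10 of 14 such fits, with an adjusted p up to 0.0814 without sleep-deprived mouse 1. All 7 sleep-deprived mice were below the control mean for each of the 4 carriers. Only Slc25a10 and Slc25a21 still passed when sleep-deprived mouse 1 or 13, or control mouse 4, 8, 11 or 12, was left out, which gives 2 of 4 in place of 4 of 4.

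**Figure D2:**
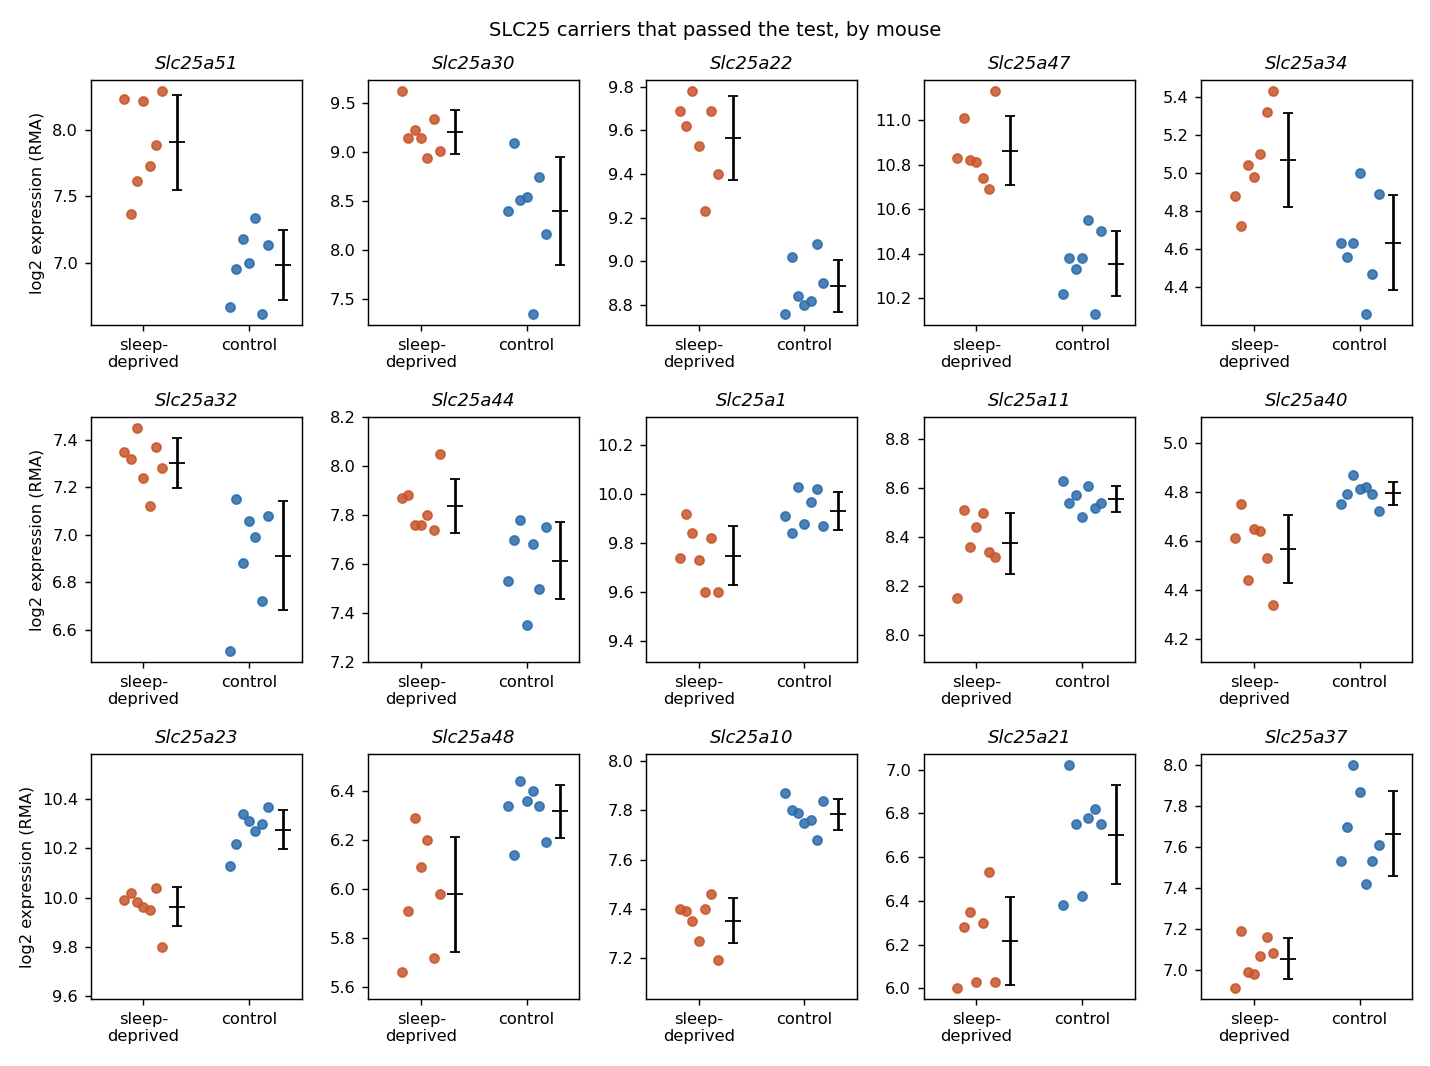
Log2 expression (RMA) of the 15 SLC25 carriers past the test in 7 sleep-deprived (orange, left) and 7 control mice (blue, right), with mean and SD beside the points. The groups are fully apart for Slc25a51, Slc25a22, Slc25a47, Slc25a10, Slc25a23 and Slc25a37 and overlap for the others, and each panel has its own scale.

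Among carriers of coenzymes, nucleotides and glutathione 2 of 10 were higher and 1 lower, with a median log2 difference of 0.010. All 10 were brighter than the median gene, and 16.0% of such genes were called in either direction. Slc25a51, the carrier that brings NAD into the matrix, had the largest rise of all 43. Its log2 levels were 8.24, 7.37, 7.62, 8.22, 7.73, 7.89 and 8.30 in sleep-deprived mice 1, 2, 3, 5, 6, 10 and 13, against 6.66, 6.95, 7.18, 7.00, 7.34, 6.61 and 7.13 in control mice 4, 7, 8, 9, 11, 12 and 14. The groups did not overlap, and sleep-deprived mouse 2 and control mouse 11 came closest. The difference was 0.93 ± 0.14 or 1.91-fold (limma, adjusted p = 0.000170).

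Slc25a32, which carries folate and is tied to mitochondrial FAD supply, ranged from 7.12 to 7.45 (median 7.32) in sleep-deprived and 6.51 to 7.15 (median 6.99) in control mice. Of the sleep-deprived mice 6 were above all controls. Its difference was 0.39 ± 0.085 (limma, adjusted p = 0.00515). Slc25a33, a pyrimidine nucleotide carrier, was at 0.34 ± 0.11 and missed the threshold (limma, adjusted p = 0.0623), with 6.80 to 7.35 in sleep-deprived and 6.47 to 7.09 in control mice and all 7 sleep-deprived mice above the control mean. It passed in 5 of 14 fits that left out 1 mouse, with an adjusted p down to 0.0250 without control mouse 14. Its paralog Slc25a36 was at 0.081 ± 0.080 (limma, adjusted p = 0.676).

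The paralogs Slc25a39 and Slc25a40, carry glutathione into mitochondria, and 1 of them passed. Slc25a40 had 4.34 to 4.75 (median 4.61) in sleep-deprived and 4.72 to 4.87 (median 4.79) in control mice, a difference of -0.23 ± 0.069 (limma, adjusted p = 0.0467). This call was the least stable of the 15, lost in 12 of 14 fits that left out 1 mouse with an adjusted p up to 0.110 (without sleep-deprived mouse 13). Slc25a39 was at -0.040 ± 0.054, with a 95% interval from -0.15 to 0.073, so that the intervals of these paralogs overlapped. Slc25a16, tied to coenzyme A supply, was at -0.14 ± 0.053 (limma, adjusted p = 0.126), Slc25a42, a coenzyme A carrier, at 0.059 ± 0.057, the peroxisomal carrier Slc25a17 at -0.087 ± 0.061 and the S-adenosylmethionine carrier Slc25a26 at -0.040 ± 0.073. None of these 4 passed, and 1 of them, Slc25a16, had an unadjusted p under 0.05 (0.0165).

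Amino acid carriers had 2 of 7 higher and 0 lower, with a median log2 difference of 0.076. Of these 7, 4 were brighter than the median gene, and 16.0% of such genes were called in either direction. Slc25a22, a carrier of glutamate with protons into the matrix, had the smallest p of all carriers. Its log2 levels were 9.69, 9.62, 9.78, 9.53, 9.23, 9.69 and 9.40 in sleep-deprived mice 1, 2, 3, 5, 6, 10 and 13, against 8.76, 9.02, 8.84, 8.80, 8.82, 9.08 and 8.90 in control mice 4, 7, 8, 9, 11, 12 and 14. No value of a sleep-deprived mouse was within the control range, and mouse 6 was the lowest of them. The rise was 0.67 ± 0.075 or 1.60-fold (limma, adjusted p = 7.58e-06). Slc25a44, a carrier of branched-chain amino acids known from brown fat, had 7.74 to 8.05 (median 7.80) in sleep-deprived and 7.35 to 7.78 (median 7.68) in control mice, and rose by 0.23 ± 0.069 (limma, adjusted p = 0.0469). Its call was lost in 10 of 14 fits that left out 1 mouse, with an adjusted p up to 0.109 without sleep-deprived mouse 13.

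The other amino acid carriers did not pass (limma). Slc25a29, a carrier of basic amino acids, was at 0.19 ± 0.071 (adjusted p = 0.120), and its log2 level of 3.82 in sleep-deprived and 3.63 in control mice was below that of the median gene. Slc25a12, the aspartate-glutamate carrier of muscle and brain, was at -0.054 ± 0.075, with control mouse 4 at 7.39 below the other controls. Slc25a38, a glycine carrier needed for haem synthesis in red cell precursors, was at -0.077 ± 0.055. Slc25a18, a paralog of Slc25a22 that also carries glutamate, was dim at 2.94 in sleep-deprived and 2.87 in control mice (difference 0.076 ± 0.076). Slc25a2, an ornithine carrier, was at 2.85 in sleep-deprived and 2.82 in control mice.

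In the carriers of adenine nucleotides and phosphate 0 of 9 were higher and 1 lower, beside 3.88% and 4.62% of all genes. Their median log2 difference was -0.005. The lower one was Slc25a23, a calcium-regulated carrier that exchanges ATP-Mg for phosphate and so sets the size of the matrix adenine nucleotide pool. Its log2 levels ran from 9.80 to 10.04 (median 9.98) in sleep-deprived and from 10.13 to 10.37 (median 10.30) in control mice, without overlap. It fell by 0.32 ± 0.046 (limma, adjusted p = 0.000126). The related carriers Slc25a24 and Slc25a25 were at -0.049 ± 0.098 and 0.051 ± 0.10.

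The core ADP/ATP and phosphate carriers gave differences close to 0. Slc25a5, the ADP/ATP translocase expressed in liver, had 10.77 to 10.90 in sleep-deprived and 10.75 to 10.93 in control mice, a difference of 0.0045 ± 0.040 with a 95% interval from -0.079 to 0.088. Slc25a3, the phosphate carrier, was at 0.021 ± 0.048 (95% interval -0.080 to 0.12), and Slc25a4, the translocase of heart and muscle, at 0.019 ± 0.087 (-0.16 to 0.20). The intervals of Slc25a5 and Slc25a3 leave out a change as large as that of Slc25a23. The germ cell carrier Slc25a31 and the carriers Slc25a41 and Slc25a54 were dim in both groups, with mean log2 levels of 2.73, 2.60 and 2.76 in sleep-deprived and 2.73, 2.79 and 2.78 in control mice.

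Both iron carriers had negative differences, and 1 of 2 passed. Both were brighter than the median gene, and 16.0% of such genes were called in either direction. Slc25a37, or mitoferrin 1, the iron importer of developing red cells, had the largest fall of all 43. Its log2 levels were 6.91, 7.19, 6.99, 6.98, 7.07, 7.16 and 7.08 in sleep-deprived mice 1, 2, 3, 5, 6, 10 and 13, against 7.53, 7.70, 8.00, 7.87, 7.42, 7.53 and 7.61 in control mice 4, 7, 8, 9, 11, 12 and 14. The groups did not overlap, and the controls were spread more widely (SD 0.10 in sleep-deprived, 0.21 in control mice). It fell by 0.61 ± 0.080 or 1.53-fold (limma, adjusted p = 4.20e-05). Slc25a28, or mitoferrin 2, the widely expressed paralog, gave -0.13 ± 0.058, which missed the threshold (limma, adjusted p = 0.228).

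Red cell markers were set beside Slc25a37, and most of those measured did not pass. Of 13 listed erythroid markers 4 were measured under a single gene name, and 1 of these was lower and 0 higher: Klf1, the red cell transcription factor, at -0.50 ± 0.097 (limma, adjusted p = 0.00196). The others were Slc4a1, the red cell anion exchanger, at -0.010 ± 0.097, the membrane skeleton protein Epb42 at -0.047 ± 0.069 and the membrane glycoprotein Rhag at 0.16 ± 0.077. Their mean log2 level over the 4 ranged from 3.34 to 3.62 in sleep-deprived and 3.36 to 3.63 in control mice, with Rhag the dimmest at 2.71 and Klf1 the brightest at 4.68. Klf1 alone was brighter than the median gene, and 0.965% of all genes dimmer than the median were called. The part of red cell precursors in the fall of Slc25a37 was not tested.

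The group of uncoupling protein-like carriers had 1 of 3 higher and 0 lower, beside 3.88% and 4.62% of all genes. Slc25a30, a carrier first described in kidney, had 9.62, 9.14, 9.22, 9.14, 8.94, 9.33 and 9.01 in sleep-deprived mice 1, 2, 3, 5, 6, 10 and 13, against 8.40, 9.09, 8.51, 8.54, 7.35, 8.74 and 8.16 in control mice 4, 7, 8, 9, 11, 12 and 14. Its controls varied most of all carriers, with an SD of 0.54 beside 0.23 in sleep-deprived mice, and control mouse 11 was lowest while control mouse 7 lay inside the range of the sleep-deprived mice. The rise was 0.80 ± 0.18 or 1.74-fold (limma, adjusted p = 0.00642), and between 0.63 and 0.92 when 1 mouse was left out. Slc25a14 and Slc25a27, known mainly from brain, were dim and at -0.086 ± 0.076 and 0.0074 ± 0.073.

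Of 8 carriers whose substrate is not settled, or that belong to none of the other classes, 2 were higher and 1 lower. Of these 8, 6 were brighter than the median gene, and 16.0% of such genes were called in either direction. Slc25a47, a carrier expressed mainly in liver, had 10.69 to 11.13 (median 10.82) in sleep-deprived and 10.13 to 10.55 (median 10.38) in control mice, without overlap. It rose by 0.51 ± 0.070 or 1.42-fold (limma, adjusted p = 7.31e-05). Slc25a34 had 4.72 to 5.43 (median 5.04) in sleep-deprived and 4.26 to 5.00 (median 4.63) in control mice, a rise of 0.43 ± 0.12 (limma, adjusted p = 0.0228). Its call was lost without sleep-deprived mouse 10 (0.0530) or 13 (0.0567) and without control mouse 11 (0.0543) or 12 (0.0503).

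Slc25a48, a carrier tied to choline uptake into mitochondria, had 5.66 to 6.29 (median 5.98) in sleep-deprived and 6.14 to 6.44 (median 6.34) in control mice. Of the sleep-deprived mice 5 were below all controls, and mice 3 and 6 overlapped them. It fell by 0.34 ± 0.090 (limma, adjusted p = 0.0214), and the adjusted p was 0.0507 without sleep-deprived mouse 1 and 0.0501 without sleep-deprived mouse 10. Slc25a35, a paralog of Slc25a34, gave -0.27 ± 0.12, short of the threshold (limma, adjusted p = 0.199). Its 95% interval, -0.51 to -0.024, did not overlap that of Slc25a34, 0.19 to 0.67. The outer membrane protein Slc25a46 was at 0.033 ± 0.055, and Slc25a43, Slc25a45 and Slc25a53 at 0.061, -0.098 and -0.094.

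**Figure D3:**
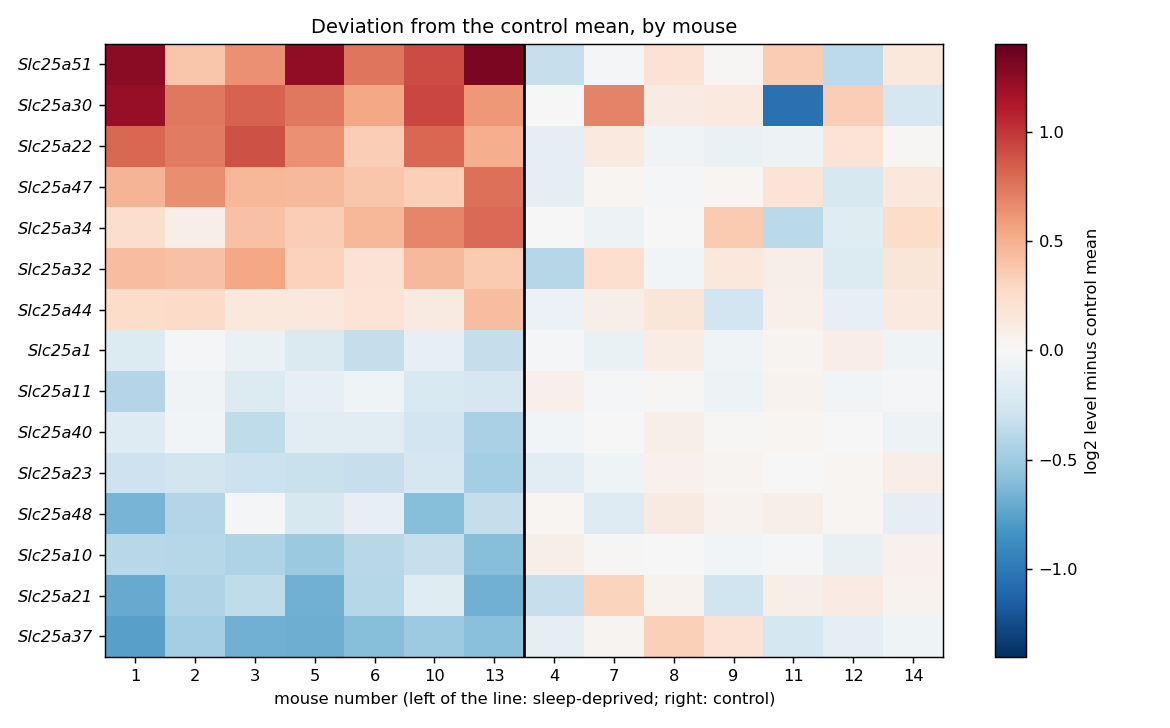
Log2 level minus the control mean of the 15 SLC25 carriers past the test (rows, from the largest rise to the largest fall) in each mouse (columns, sleep-deprived left of the line, controls right). Slc25a1 and Slc25a11 are among the palest on the sleep-deprived side, and control mouse 11 stands out low for Slc25a30.

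Seen by mouse, all 7 sleep-deprived mice lay on the same side of the control mean for each of the 15 called carriers. These carriers were picked by the test on the same values, so this adds no support. It also held for Slc25a28, Slc25a29 and Slc25a33, which did not pass. Mouse 2 was the lowest of the sleep-deprived mice for Slc25a51 and Slc25a34 and was nearest to the controls for Slc25a1, Slc25a11, Slc25a37 and Slc25a40. Mouse 13 had the highest levels of Slc25a51, Slc25a34, Slc25a44 and Slc25a47 and the lowest of Slc25a10, Slc25a23 and Slc25a40. Of the carriers in both groups the SDs between mice were mostly between 0.05 and 0.25, and above 0.3 for Slc25a51 in sleep-deprived mice (0.36) and for Slc25a30 (0.54) and Slc25a41 (0.34) in controls.

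Some carriers stand next to each other in the genome, by the order of protein-coding genes in RefSeq. Slc25a29 and Slc25a47 are neighbours on chromosome 12 and had differences of 0.19 and 0.51, of which the second passed. Slc25a41 and Slc25a23 on chromosome 17 were at -0.19 and -0.32, and again the second passed. Slc25a54 and Slc25a24 on chromosome 3 were at -0.016 and -0.049, and Slc25a43 and Slc25a5 on chromosome X at 0.061 and 0.0045, with no call. Each of these 4 pairs had a common sign, but whether neighbours share a direction was not tested. Slc25a29, Slc25a41, Slc25a43 and Slc25a54 were dimmer than the median gene. When 1 mouse was left out, the difference of Slc25a5 ran from -0.01 to 0.02 and that of Slc25a54 from -0.05 to 0.02. The signs of Slc25a5 and Slc25a54 were therefore not stable. The difference of Slc25a41 was -0.07 without control mouse 12, which stood apart at 3.55.

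Genes that work with the carriers were set beside them. Of 11 measured enzymes of the shuttles and of citrate use 2 were higher and 2 lower (36.4%), beside 3.88% of all genes higher and 4.62% lower. All 11 were brighter than the median gene, and 16.0% of such genes were called in either direction. Got1, the cytosolic aspartate aminotransferase of the malate-aspartate shuttle, was at 0.60 ± 0.079 (limma, adjusted p = 4.98e-05), Mdh2, the matrix malate dehydrogenase, at 0.15 ± 0.045 (adjusted p = 0.0464), Idh2, the matrix NADP-dependent isocitrate dehydrogenase, at -0.40 ± 0.076 (adjusted p = 0.00156), and Acly, which cleaves the citrate exported through Slc25a1, at -0.47 ± 0.11 (adjusted p = 0.00651). The call of Mdh2 was lost in 12 of 14 fits that left out 1 mouse, with an adjusted p up to 0.103 without sleep-deprived mouse 3.

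A list of other mitochondrial transporters, with the outer membrane proteins Mtch1 and Mtch2, had 1 of 13 higher and 2 lower (23.1%). Of these 13, 10 were brighter than the median gene, and 16.0% of such genes were called in either direction. Sfxn1, a serine carrier of another family, rose by 0.31 ± 0.049 (limma, adjusted p = 0.000317), Mtch1, a distant relative of the carriers, was at -0.20 ± 0.059 (adjusted p = 0.0382) and Abcb8, an ATP-binding cassette transporter, at -0.26 ± 0.080 (adjusted p = 0.0484). The calls of Mtch1 and Abcb8 were lost in 9 and 13 of 14 fits that left out 1 mouse. Sfxn2, a paralog of Sfxn1, was at 0.28 ± 0.088 (adjusted p = 0.0527) and passed in 5 of 14 fits that left out 1 mouse. In the pathway that imports carriers into the inner membrane, with the outer membrane channels, 1 of 13 was higher and 2 lower: the chaperone Timm9 at 0.38 ± 0.092 (limma, adjusted p = 0.0118), Agk, a kinase that is part of the carrier translocase, at -0.40 ± 0.10 (adjusted p = 0.0174), and the channel Vdac1 at -0.19 ± 0.053 (adjusted p = 0.0317, lost in 7 of 14 fits). The import receptor Tomm70a was at -0.14 ± 0.050 (adjusted p = 0.0953) and passed in 1 of 14 fits that left out 1 mouse. All 13 genes of this import list were brighter than the median gene, and 23.1% of them were called, beside 16.0% of such brighter genes.

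Respiratory chain and ATP synthase genes, which share the inner membrane with the carriers, had 0 of 18 past the test (limma, with 5 at an unadjusted p under 0.05), and their differences ran from -0.17 (Sdhb) to 0.14 (Cycs). With the smallest p-values came the ATP synthase subunit Atp5a1 at -0.089 ± 0.034 and the succinate dehydrogenase subunit Sdha at -0.087 ± 0.034. All 18 were brighter than the median gene, and 16.0% of such genes were called in either direction. Of all genes 19.4% had an unadjusted p under 0.05 (limma). Sdhb passed when sleep-deprived mouse 6 was left out (limma, adjusted p = 0.0394). The median absolute log2 difference was 0.063 over these 18, 0.098 over the 43 carriers and 0.077 over all genes. A difference between these lists was not tested.

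Regulators of mitochondrial biogenesis had 2 of 11 higher and 1 lower (27.3%). All 11 were brighter than the median gene, and 16.0% of such genes were called in either direction. The coactivators Pprc1 and Ppargc1b were at 0.42 ± 0.099 (limma, adjusted p = 0.0105) and -0.28 ± 0.075 (adjusted p = 0.0214), the mitochondrial RNA polymerase Polrmt at 0.23 ± 0.063 (adjusted p = 0.0250, lost in 5 of 14 fits that left out 1 mouse) and the mitochondrial DNA polymerase Polg at 0.18 ± 0.066 (adjusted p = 0.116). The call of Ppargc1b was lost without control mouse 9 (0.0505).

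**Figure D4:**
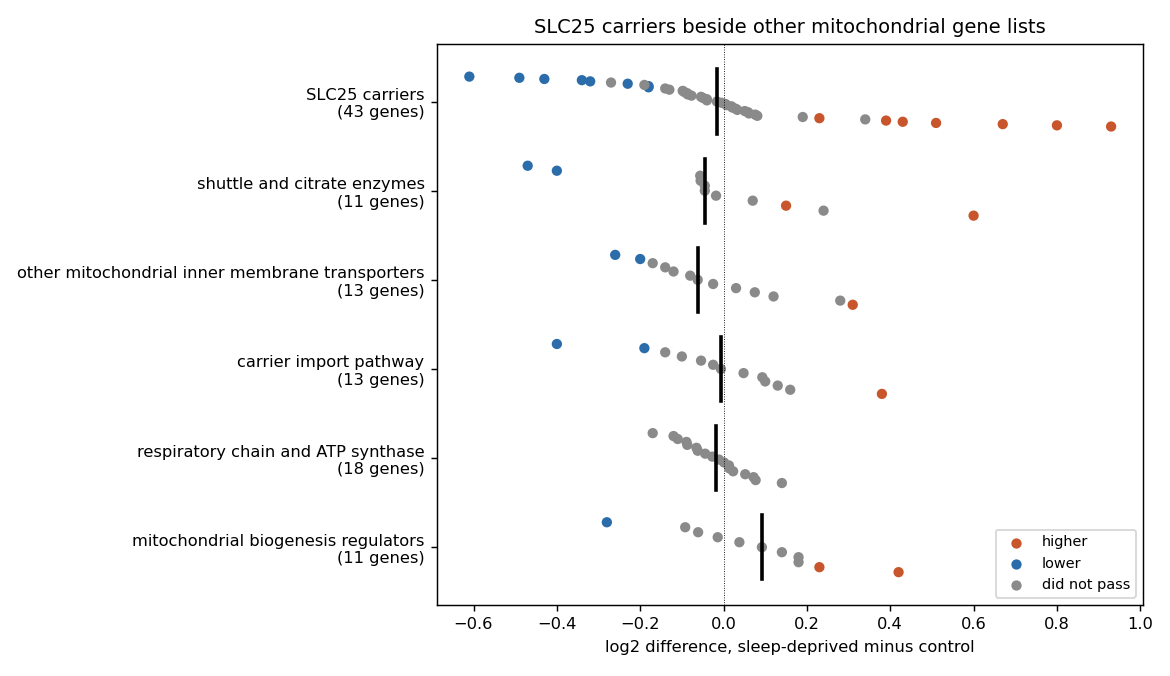
Log2 difference, sleep-deprived minus control, of each gene in the 43 SLC25 carriers and in 5 other mitochondrial lists (points, coloured by direction where past the test; black bars are list medians). The carriers run from -0.61 to 0.93 and the 18 respiratory chain and ATP synthase genes from -0.17 to 0.14, none of which passed.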

How the data were processed

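Liver RNA of 14 samples, 100 ng each, was labelled with the Affymetrix WT PLUS kit, per the labels' protocols. Per the submitters' processing notes the authors used RMA (version not stated), and they deposited 1 log2 value for each probe set and array. RMA normalizes arrays to each other and compresses differences of dim genes. Software, genome build and filters are not stated in the labels used here. Depth does not apply to arrays, and 7 per group limit the precision.

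Of 41345 probe sets 23521 had 1 gene symbol, 1814 several and 16010 none in the platform annotation. A gene with several probe sets was read from the one with the highest mean, giving 22180 genes. The group difference (sleep-deprived minus control) came from a two-sided limma fit (version 3.58.1, R 4.3.3) with an intensity-dependent prior, Benjamini-Hochberg adjustment over all genes and a threshold of 0.05. Groups came from the titles. Where nothing says that samples came from separate mice, p-values measure only the spread between these samples. Tested on simulated data for this comparison over 22180 genes, the fit recovered 43% of 100 genes changed by 0.3 and 91% of 100 changed by 0.6 on the log2 scale, with 8 false calls. Only these genes changed in the simulation, drawn at any brightness with normal noise, while 1886 genes were called in the data. The recovery for the carriers, most of them bright, can therefore differ.

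The members, substrate classes and lists were chosen with earlier results of these data known. The genes named are all members, in full where past the threshold, and up to 4 genes per pathway list with the smallest adjusted p. Alternatives were other eBayes settings, array weights, brighter genes only, other probe set rules, other normalization, the sample number as a covariate, a size threshold and leaving out each mouse.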

Additional observations from a re-analysis of the deposited data

Results flagged for a closer look

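In 6 of 86 groups of 7 mice (43 carriers, 2 groups each) the highest or lowest mouse stood apart from the others, its gap to the nearest mouse taking more than 0.568 of the whole range. Chance gives about 1 in 20 such groups. Sleep-deprived mouse 13 was low for Slc25a23, at 9.80 with the next at 9.95 (gap 0.625 of the range), mouse 2 was low for Slc25a46, at 8.29 with the next at 8.48 (0.628), mouse 10 was low for Slc25a14, at 2.97 with the next at 3.16 (0.585), and mouse 5 was high for Slc25a43, at 3.34 with the next at 3.13 (0.585). Control mouse 4 was low for Slc25a12, at 7.39 with the next at 7.77 (0.729), and control mouse 12 was high for Slc25a41, at 3.55 with the next at 2.84 (0.722). Of these 6 carriers Slc25a23 was the only one past the test, and it also passed in every fit that left out 1 mouse.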

How the results depend on the processing

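Of the 15 called carriers 9 passed in all 14 fits that left out 1 mouse and in every other alternative in which they were tested: Slc25a10, Slc25a21, Slc25a22, Slc25a23, Slc25a30, Slc25a32, Slc25a37, Slc25a47 and Slc25a51. The direction of the 15 held in every alternative, while 8 of the 28 other carriers changed sign in some. The count of lower carriers, 8, was 5 with quantile normalization again, 5 with a size threshold of 0.3 and 4 to 8 when 1 mouse was left out (4 without sleep-deprived mouse 1). Without sleep-deprived mouse 10 or 13 or control mouse 4, 8, 11 or 12 it was 5. The count of higher carriers lay between 5 and 8. Carrier calls lost outside the fits that left out a mouse were those of Slc25a1 (eBayes without trend, quantile again), Slc25a11 (these 2, median centring, sample number), Slc25a40 (robust eBayes, median centring, quantile again) and Slc25a44 (eBayes without trend). Among brighter genes only, 16 carriers of 33 passed, Slc25a33 now among them (limma, adjusted p = 0.0381), beside 20.4% of genes. The size threshold left 1156 of all genes in place of 1886, and 7 of the 13 called genes of the 5 other lists. That 13 was 8 to 15 when 1 mouse was left out, with 8 without sleep-deprived mouse 1 or control mouse 9. In the 9 other settings these lists lost the calls of Abcb8 in 5, of Mtch1 and Vdac1 in 3 each, of Mdh2 in 2 and of Polrmt in 1, with adjusted p up to 0.193 for Mdh2 and 0.188 for Mtch1 with the sample number as a covariate (limma). Calls were gained in these settings for Sfxn2 and Mpc1 in 3 each, Gpd1, Sfxn5 and Tomm70a in 2 each, and Timm29 in 1. Among brighter genes only, 18 genes of these lists passed. The cause of these changes was not tested, apart from the size threshold, which removes small differences by construction. No paired analysis was possible because the groups share no sample number.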
